A study of Saccharomyces cerevisiae with 18 samples.

Results

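The 10 genes described here carry sodium, lithium and potassium ions across membranes of budding yeast or control those that do, and they were chosen by name. They are *ENA1*, *ENA2*, *ENA5*, *NHA1*, *NHX1*, *VNX1*, *TRK1*, *TRK2*, *HAL5* and *PPZ1*. All 10 were found among the 7126 genes of the count table, and 9 of them passed edgeR's expression filter, which left 6239 genes to test, while *ENA2* did not. Polyadenylated RNA was sequenced from haploid MATa BY4741 cells (his3Δ1 ura3Δ0 leu2Δ0 lys2Δ0) with the genomic copy of the transcription factor gene *HCM1* under the *GAL1* promoter, which dextrose shuts off, and a *TEF* promoter driving GFP on chromosome VI. The remaining Hcm1 came from a low-copy *URA3* plasmid in which the *HCM1* promoter drove 3V5-tagged *hcm1-3N*, *hcm1-8E* or WT *HCM1*. In *hcm1-3N* the sites whose phosphorylation marks Hcm1 for destruction are missing. In *hcm1-8E* the CDK sites of the transactivation domain are replaced by residues that mimic phosphate. Each strain grew for 40 hours in dextrose medium lacking uracil, with 150 mM LiCl or without it (control medium), in 3 biological replicates, which gave 18 libraries.

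Lithium enters yeast through the same routes as sodium and is toxic at lower levels. Cells survive it by pumping it out at the plasma membrane, by storing it in the vacuole and endosomes, and by taking up potassium in its place. The Ena proteins are P-type ATPases that export sodium and lithium, and *ENA1* is the copy known to be induced by salt, through the phosphatase calcineurin and its transcription factor Crz1 among other routes. Nha1 exchanges sodium, lithium or potassium for protons at the plasma membrane. Nhx1 does so in endosomes, and Vnx1 in the vacuole. Trk1 and Trk2 import potassium, the kinase Hal5 keeps Trk1 active at the membrane, and the phosphatase Ppz1 restrains both Trk1 and *ENA1* expression.

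Library totals lay between 18816441 and 21851012 counts, at which 3 counts, taken as the floor, equal 0.137 to 0.159 per 1000000 counts of the library. Levels are given as CPM, counts scaled to 1000000 after TMM normalization. Replicate 1 stood apart from the other two in every group. Within groups, the chi-square per gene was 41.4 to 280 for pairs with replicate 1 and 10.3 to 53.4 for pairs of replicates 2 and 3. No library was thus a copy of another in its group, and pairs across groups were not compared. The 6 MATa marker genes summed to 1865 to 2759 CPM per library and the 4 MATalpha marker genes to 44.4 to 95.8 CPM. *LEU2* and *LYS2*, both deleted in the strains, had 0 counts in all 18 libraries. RNA was measured in bulk, so a change in the share of cells that express a gene cannot be told apart from a change per cell. In every group of 3 the library of replicate 1 held the lowest *HAL5* and *VNX1* level and the highest *ENA5* level in CPM, and in 5 of the 6 groups it held the lowest *NHX1* level. Results are therefore also given with the replicate number as a block, and without the 6 libraries numbered 1, where either changed a call.

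The 3 ENA genes lie side by side on the minus strand of chromosome IV in the R64 genome, each as a single coding exon of 3276 bases with no overlapping gene. *ENA1* is at chrIV:535192-538467, *ENA2* at chrIV:531307-534582 and *ENA5* at chrIV:527422-530697. Their coding sequences were identical at 98.69% of positions for *ENA1* and *ENA2*, 97.65% for *ENA1* and *ENA5*, and 98.96% for *ENA2* and *ENA5*. The last pair shared an unbroken run of 2643 bases. Since the authors counted only fragments with a mapping quality above 20, a fragment could be counted for an ENA gene only where its sequence sets that gene apart. The stretch near the 3′ end with the most differing bases is shown first, coding bases 3186 to 3275, with the positions that differ among the 3 genes in capitals. Here *ENA1* and *ENA2* are identical and *ENA5* differs from both at 25 bases.

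ENA1, chrIV:535193-535282, minus strand: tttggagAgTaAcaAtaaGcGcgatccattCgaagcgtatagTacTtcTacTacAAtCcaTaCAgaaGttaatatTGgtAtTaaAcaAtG
ENA2, chrIV:531308-531397, minus strand: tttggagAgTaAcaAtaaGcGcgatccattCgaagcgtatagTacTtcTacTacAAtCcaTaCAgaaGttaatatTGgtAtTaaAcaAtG
ENA5, chrIV:527423-527512, minus strand: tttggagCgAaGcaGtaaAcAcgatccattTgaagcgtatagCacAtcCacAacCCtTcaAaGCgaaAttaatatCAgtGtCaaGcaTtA

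Near the 5′ end the resemblance was the other way round. In coding bases 181 to 270, shown because *ENA1* and *ENA2* differ most there, *ENA2* and *ENA5* are identical and *ENA1* differs from both at 18 bases, again in capitals.

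ENA1, chrIV:538198-538287, minus strand: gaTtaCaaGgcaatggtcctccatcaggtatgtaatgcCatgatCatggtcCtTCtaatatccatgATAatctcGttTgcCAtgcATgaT
ENA2, chrIV:534313-534402, minus strand: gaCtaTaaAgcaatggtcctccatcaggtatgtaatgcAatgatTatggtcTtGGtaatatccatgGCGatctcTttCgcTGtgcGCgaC
ENA5, chrIV:530428-530517, minus strand: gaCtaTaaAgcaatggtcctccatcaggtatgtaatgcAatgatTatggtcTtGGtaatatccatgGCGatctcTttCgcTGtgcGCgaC

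*ENA2* thus shares its beginning with *ENA5* and its end with *ENA1*. Of all 100-base windows of each coding sequence, the length of the reads, 14.8% were found once in the genome for *ENA1*, 12.2% for *ENA5* and 1.45% for *ENA2*. The windows of the other 7 genes were all found once. Those of *ENA1* made up 84.9% of the windows in the first 10% of the gene, whereas those of *ENA5* and the 46 windows of *ENA2* lay towards the 3′ end. Over the 18 libraries *ENA1* had 18713 counts, or 39.8 per window found once, *ENA5* had 6950 counts, or 17.9 per window, and *ENA2* had 118 counts, or 2.57 per window. These windows stand for single reads, whereas the reads were paired. Of 150-base windows 18.2% were found once for *ENA1*, 15.6% for *ENA5* and 3.07% for *ENA2*. The counts of the ENA genes, and *ENA2* most of all, are therefore uncertain, and a change in one copy cannot be fully told apart from a change in another.

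**Figure D1:**
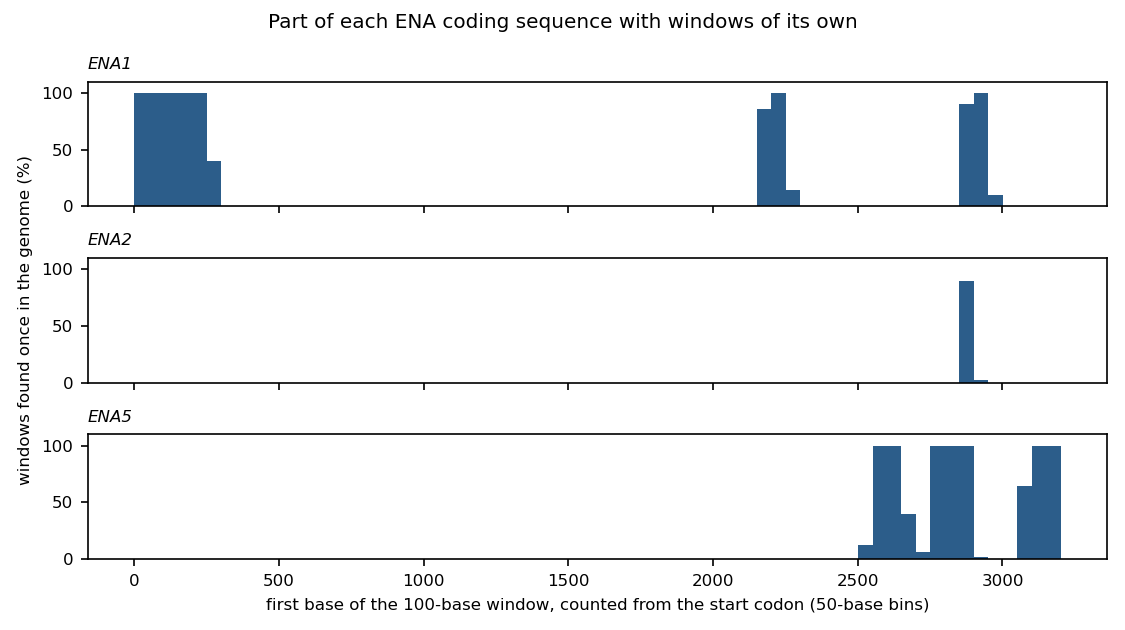
Percentage of 100-base windows found once in the R64 genome (y axis) along the coding sequences of *ENA1*, *ENA2* and *ENA5* (x axis, bases from the start codon, in 50-base bins). The windows of *ENA1* lie mostly at its 5′ end, those of *ENA5* towards the 3′ end, and *ENA2* has almost none.

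The promoters of the 3 copies also fall into 2 kinds. The 300 bases upstream of *ENA2* and *ENA5* are 100% identical to each other and 51.92% identical to those of *ENA1*. In the 1000 bases upstream of each gene, on both strands, the calcineurin-dependent response element bound by Crz1 (CDRE, searched as GNGGCTCA or GNGGCGCA) was matched in *ENA1* and *HAL5*, 2 of the 10 genes, against 7.47% of 6007 genes. The cAMP response element (CRE, TGACGT), to which the repressor Sko1 binds, was matched in *ENA1*, *TRK1* and *HAL5*, against 27% of genes. The core of the site of the glucose repressor Mig1 (CCCCGC or CCCCAC) was matched in *ENA1* and *NHA1*, against 25.3% of genes. The short Nrg1 site CCCCT was matched in 7 of the 10 genes, against 54.9% of genes, and the Rim101 site GCCAAG in 0 of the 10, against 36.8%. A match is a run of letters and not a measured site. The stretches with the CDRE matches are shown because *ENA1* and *HAL5* had the most variable levels of the 9 tested genes, with the matches in capitals. In *ENA1* the capitals mark a Mig1 core at bases 539 to 534 before the start codon, read on the other strand, a CDRE at bases 537 to 530 that shares bases 537 to 534 with it, and a CRE at bases 509 to 504. In *HAL5* they mark a CDRE on the other strand that begins 196 bases before the start codon, with an Nrg1 match overlapping it.

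ENA1, chrIV:538968-539027, minus strand: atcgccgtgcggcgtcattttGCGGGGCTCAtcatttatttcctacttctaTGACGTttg
HAL5, chrX:109638-109667, minus strand: tttttttacgTGAGCCCCttggtataaacc

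Per length, in the authors' TPM (counts divided by gene length and scaled to 1000000) averaged over the 18 libraries, *NHX1* was the most abundant of the 10 genes at 63.8 TPM. It was followed by *PPZ1* (48.7 TPM), *NHA1* (34.6 TPM), *HAL5* (31.9 TPM) and *VNX1* (31.4 TPM). *TRK1* (12.3 TPM), *ENA1* (11.7 TPM) and *TRK2* (9.69 TPM) were lower, and *ENA5* (4.34 TPM) and *ENA2* (0.0737 TPM) were last. The TPM of the ENA genes divide counts by the whole gene length although only part of each gene could be counted. *ENA1* and *ENA2* had the widest ranges between libraries, 6.83-fold and 7.01-fold in CPM, *ENA2* on 2 to 14 counts. *TRK2* had the narrowest, at 1.29-fold.

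**Figure D2:**
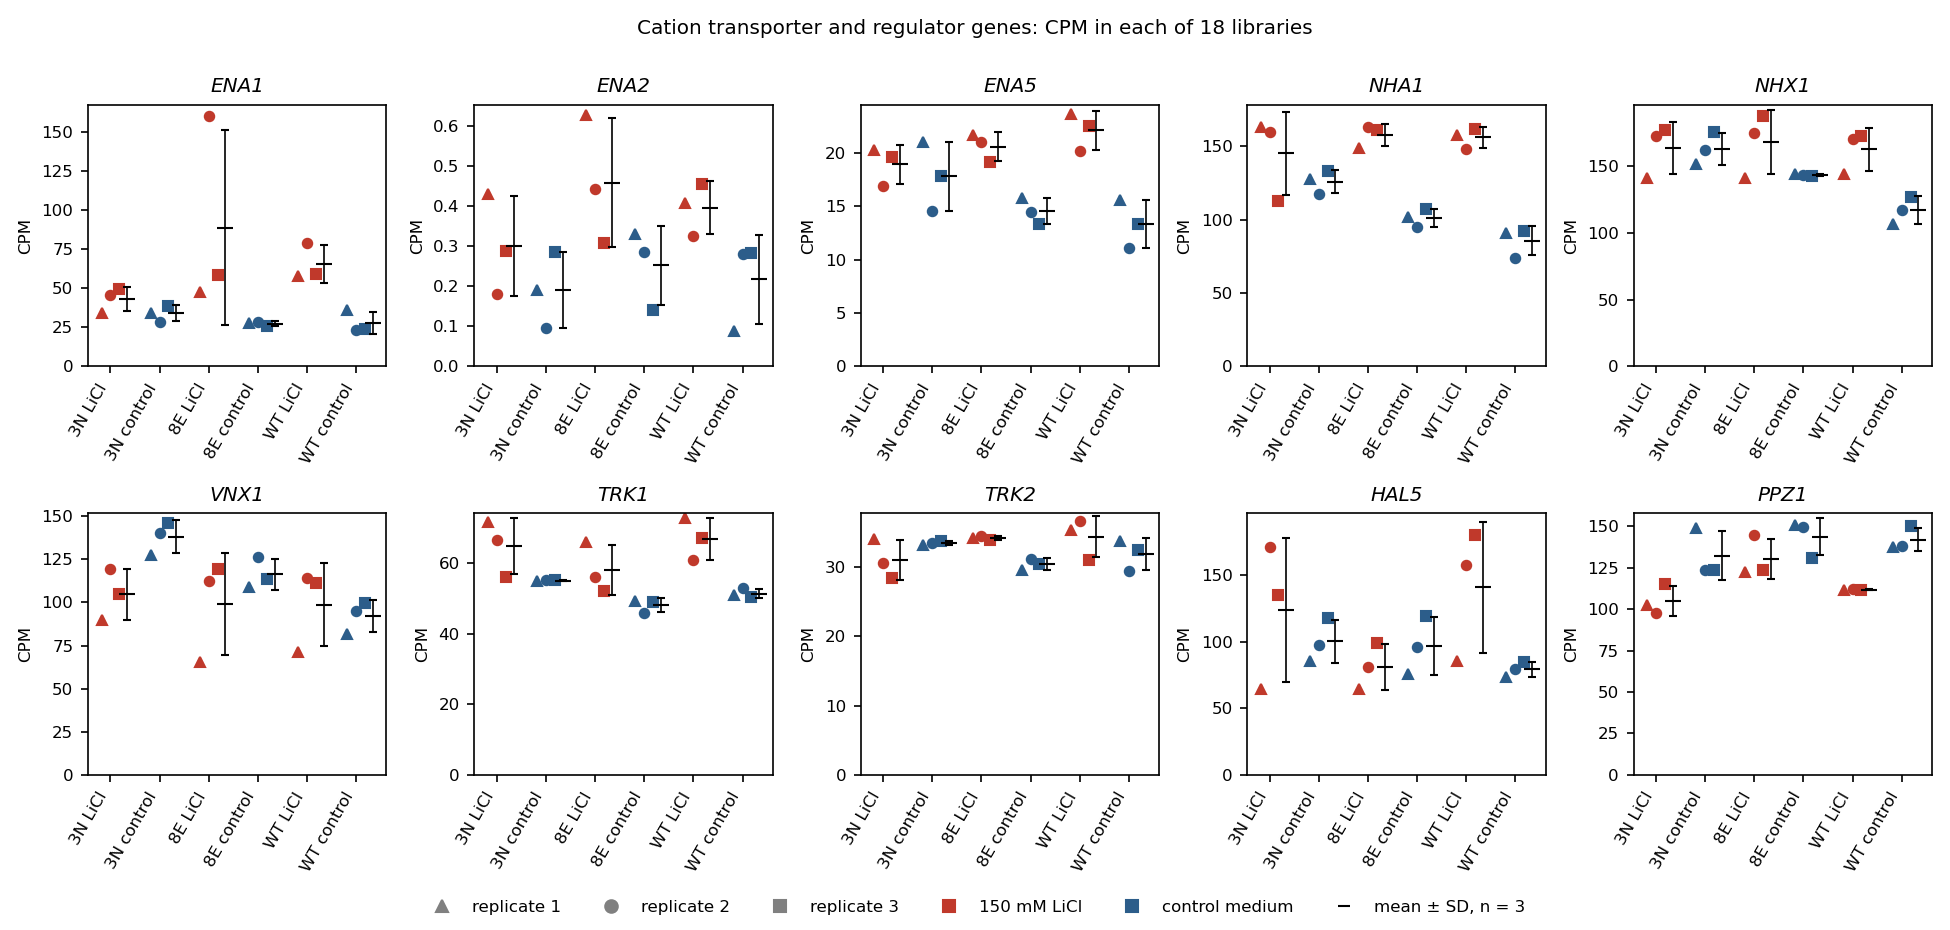
CPM (y axis, from 0, a separate scale for each gene) of the 10 genes in each library, for *hcm1-3N* (3N), *hcm1-8E* (8E) and WT in LiCl (red) and control medium (blue), with the replicate number as the symbol and the mean and SD of n = 3 in black. *ENA1* reaches 161 CPM in replicate 2 of *hcm1-8E* in LiCl, and *HAL5* is lowest in replicate 1 (triangles) in every group.

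In WT cells, LiCl raised the RNA of both exporter families and of the main potassium importer. *ENA1* was 2.34-fold higher in LiCl, *NHA1* 1.82-fold, *ENA5* 1.66-fold, *NHX1* 1.39-fold and *TRK1* 1.30-fold, and *PPZ1* fell to 0.787 of its control level. These 5 genes rose and 1 fell of the 9 tested at an adjusted p-value under 0.05 (edgeR's quasi-likelihood test, Benjamini-Hochberg adjustment over all genes), when 30.4% of all genes tested were called, 16.5% higher and 13.9% lower. For 7 of the 9 the groups did not overlap in CPM, against 45.3% of all genes. The median log2 fold change was 0.477 over the 9 genes and 0.0175 over all genes tested.

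*ENA1* had 57.7, 79.3 and 59.4 CPM in WT cells in LiCl, against 36.1, 23.5 and 24.2 CPM in control medium. The groups did not overlap, and replicate 2 in LiCl was the highest library. The log2 fold change was 1.23 (SE 0.354, adjusted p = 0.0172 by edgeR), and the adjusted p rose as high as 0.0767 when single libraries were left out. It exceeded 0.05 without WT control replicate 2 (log2 fold change 1.09), WT control replicate 3 (1.13) or WT LiCl replicate 2 (1.07). *ENA5*, the copy with a different promoter, had 23.6, 20.1 and 22.6 CPM in LiCl and 15.6, 11.1 and 13.4 CPM in control medium. Each LiCl library was above each control library (log2 fold change 0.73, SE 0.146, adjusted p = 0.00211 by edgeR). With the counts of the 3 copies summed, the log2 fold change was 1.08 (SE 0.284, edgeR adjusted p = 0.0106).

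*NHA1*, the plasma membrane antiporter, had 158, 148 and 162 CPM in WT cells in LiCl, against 91.0, 74.0 and 91.8 CPM in control medium. The gap between the groups was far wider than the spread within either (log2 fold change 0.86, SE 0.128, adjusted p = 0.000302 by edgeR), and it was called in all 18 fits that left out a library. *NHX1*, the endosomal exchanger, had 145, 171 and 173 CPM in LiCl and 106, 117 and 127 CPM in control medium. Its groups did not overlap, with replicate 1 the lowest in both (log2 fold change 0.48, SE 0.120, adjusted p = 0.00827 by edgeR). *VNX1*, the vacuolar exchanger, had 71.2, 114 and 111 CPM in LiCl, against 81.7, 94.8 and 99.4 CPM in control medium. Its groups overlapped, and it was not called (log2 fold change 0.10, SE 0.208, edgeR adjusted p = 0.735).

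*TRK1*, the high-affinity potassium importer, had 72.7, 60.9 and 67.0 CPM in WT cells in LiCl, against 50.9, 52.8 and 50.3 CPM in control medium. The LiCl libraries were all higher (log2 fold change 0.38, SE 0.104, adjusted p = 0.0132 by edgeR). The adjusted p exceeded 0.05 without WT control replicate 1 (log2 fold change 0.35) or 2 (0.38) and without WT LiCl replicate 1 (0.28) or 3 (0.36). *TRK2* had 35.4, 36.7 and 31.0 CPM in LiCl and 33.8, 29.4 and 32.5 CPM in control medium, groups that overlapped (log2 fold change 0.11, SE 0.0864, edgeR adjusted p = 0.367). *PPZ1* had 112, 112 and 111 CPM in LiCl, against 138, 138 and 150.1 CPM in control medium. All LiCl libraries were lower (log2 fold change -0.35, SE 0.10, adjusted p = 0.0176 by edgeR), a call lost only without WT control replicate 3 (log2 fold change -0.31).

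*HAL5*, the kinase that stabilizes Trk1, had 85.9, 158 and 180.1 CPM in WT cells in LiCl, against 73.5, 79.8 and 84.8 CPM in control medium. Replicate 1 in LiCl lay just above the control libraries, and replicates 2 and 3 far above them. The gene was not called by edgeR in the fit of all libraries (log2 fold change 0.83, SE 0.320, edgeR adjusted p = 0.0621). DESeq2 on all libraries did call it (log2 fold change 0.82, DESeq2 adjusted p = 0.0387). By edgeR it was called with the replicate block (adjusted p = 0.00502) and without the 6 libraries numbered 1 (log2 fold change 1.01, adjusted p = 6.49e-05). It was also called without WT LiCl replicate 1 (1.06) or 3N LiCl replicate 1 (0.80). With the replicate block 7 of the 9 genes were called in WT, against 49% of all genes.

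**Figure D3:**
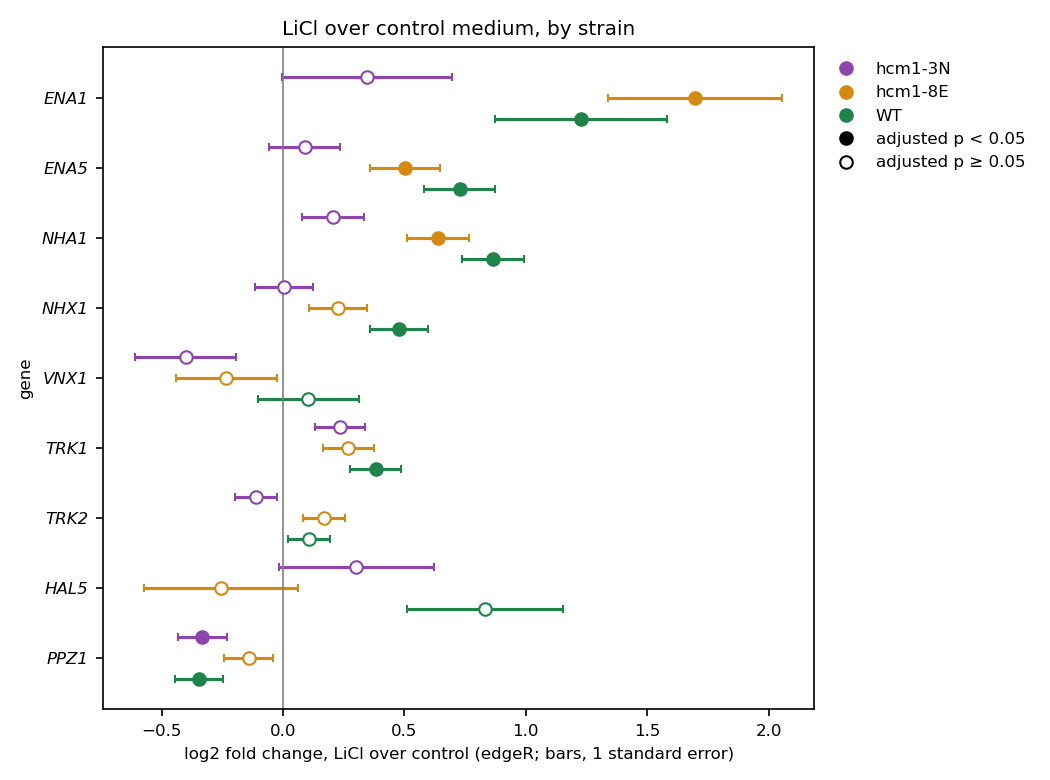
Log2 fold change of LiCl over control medium (x axis) for the 9 tested genes (y axis) in *hcm1-3N*, *hcm1-8E* and WT, with bars of 1 standard error and filled points for an adjusted p under 0.05 (edgeR). Of the 9 genes, 1 point is filled in *hcm1-3N*, 3 in *hcm1-8E* and 6 in WT.

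In *hcm1-8E* cells, LiCl raised *ENA1* 3.24-fold, *NHA1* 1.56-fold and *ENA5* 1.42-fold. These 3 of the 9 tested genes rose and 0 fell, when 29.5% of all genes tested were called, 17.1% higher and 12.5% lower. For 5 of the 9 the groups did not overlap, against 44.5% of all genes. The median log2 fold change was 0.227 over the 9 genes and 0.032 over all genes. With the replicate block 5 of the 9 were called, against 48.1% of all genes, *NHX1* (edgeR adjusted p = 0.0383, 0.168 without the block) and *TRK1* (0.0251, 0.0654 without it) being the others. *TRK1* was also called without 3N LiCl replicate 3 (log2 fold change 0.27, adjusted p = 0.038), and *NHX1* without the libraries numbered 1 (0.32, adjusted p = 0.00938).

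*ENA1* had 47.5, 161 and 58.5 CPM in *hcm1-8E* cells in LiCl, against 28.0, 28.5 and 25.8 CPM in control medium. Replicate 2 in LiCl stood apart from all other libraries, with 3633 counts of *ENA1*. Without that library the log2 fold change was 0.95, against 1.70 with it (SE 0.358, edgeR adjusted p = 0.00331), and *ENA1* was called in all 18 fits that left out a library, with adjusted p-values of up to 0.0174. It was not called when only the 2 groups compared were fitted (1.68, adjusted p = 0.0563). *ENA5* had 21.7, 21.0 and 19.1 CPM in LiCl and 15.8, 14.5 and 13.3 CPM in control medium, and was not raised further in replicate 2. In that library *ENA1* made up 88.2% of the counts of the 3 ENA genes, the highest share of any library in LiCl, where the mean was 68.8% in *hcm1-3N*, 77.1% in *hcm1-8E* and 74.0% in WT cells. The *ENA5* change was 0.50 on the log2 scale (SE 0.145, adjusted p = 0.0191 by edgeR) and exceeded 0.05 without 8E control replicate 2 (0.50) or 3 (0.44) or 8E LiCl replicate 1 (0.44).

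*NHA1* had 149, 163 and 161 CPM in *hcm1-8E* cells in LiCl, against 102, 94.7 and 107 CPM in control medium, and did not overlap (log2 fold change 0.64, SE 0.127, adjusted p = 0.00225 by edgeR). *NHX1* had 141, 175 and 188 CPM in LiCl and 144, 143 and 143 CPM in control medium. Replicate 1 in LiCl lay just below the tight control group, and the other LiCl libraries lay above it. *HAL5* had 64.3, 80.9 and 98.9 CPM in LiCl, against 75.9, 95.9 and 119.5 CPM in control medium. Each replicate was lower in LiCl, although the groups overlapped (log2 fold change -0.26, SE 0.318, edgeR adjusted p = 0.57). *VNX1*, *TRK2* and *PPZ1* were not called, with log2 fold changes of -0.23, 0.17 and -0.14 and edgeR adjusted p-values of 0.424, 0.159 and 0.307.

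In *hcm1-3N* cells, 1 of the 9 genes passed the test, *PPZ1*, which was lower in LiCl, when 10.3% of all genes were called, 5.16% higher and 5.18% lower. For 3 of the 9 the groups did not overlap, against 31.3% of all genes. The median log2 fold change was 0.0889 over the 9 genes and 0.00924 over all genes. *PPZ1* had 102, 97.5 and 115 CPM in LiCl, against 149, 124 and 123 CPM in control medium, with no overlap (log2 fold change -0.33, SE 0.101, edgeR adjusted p = 0.0486). The call was kept in 5 of the 18 fits that left out a library, those without WT LiCl replicate 1, 3N LiCl replicate 3 or any of the 8E LiCl libraries, with adjusted p-values between 0.02 and 0.133 over all 18. It was lost when only the 2 groups compared were fitted (adjusted p = 0.191), where 19 genes were called in all. With the replicate block it was kept (adjusted p = 0.0174) and *VNX1* was called as well (log2 fold change -0.40 without the block, adjusted p = 0.0207 with it and 0.204 without it), when 38.1% of all genes were.

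*ENA1*, *ENA5*, *NHA1* and *NHX1* were not called in *hcm1-3N*. *ENA1* had 34.3, 45.8 and 49.5 CPM in LiCl, against 34.4, 28.7 and 39.0 CPM in control medium, and the groups overlapped (log2 fold change 0.34, SE 0.350, edgeR adjusted p = 0.52). *ENA5* had 20.3, 16.9 and 19.6 CPM in LiCl and 21.0, 14.5 and 17.9 CPM in control medium, also overlapping (log2 fold change 0.09, edgeR adjusted p = 0.694). *NHA1* had 163, 159 and 113 CPM in LiCl, against 128, 117 and 133 CPM in control medium. Replicates 1 and 2 in LiCl lay above all control libraries and replicate 3 below them. Without 3N LiCl replicate 3 the log2 fold change of *NHA1* was 0.36, against 0.20 with it (edgeR adjusted p = 0.027 and 0.281), and that of *TRK1* was 0.33, against 0.23 (edgeR adjusted p = 0.0381 and 0.142).

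In *hcm1-3N*, *NHX1* had 142, 173 and 177 CPM in LiCl and 152, 162 and 176 CPM in control medium, which were indistinguishable (log2 fold change 0.0043, SE 0.119, edgeR adjusted p = 0.982). *VNX1* had 89.9, 119 and 105 CPM in LiCl, against 128, 140.4 and 146 CPM in control medium, so that every LiCl library was lower. *HAL5* had 64.8, 171 and 135 CPM in LiCl and 85.4, 97.7 and 118 CPM in control medium, with replicate 1 below and replicates 2 and 3 above the controls. It was not called with all libraries (log2 fold change 0.30, edgeR adjusted p = 0.536). Without the libraries numbered 1 it was (log2 fold change 0.49, adjusted p = 0.0167). In that fit *VNX1* was called too (log2 fold change -0.37, adjusted p = 0.00955), and *PPZ1* was not (log2 fold change -0.24, adjusted p = 0.122).

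*ENA2* is given as counts. It had 77 counts over the 9 libraries in LiCl (95% Poisson interval 60.8 to 96.2) and 41 over the 9 in control medium (29.4 to 55.6). Single libraries had 4 to 14 counts in LiCl and 2 to 7 in control medium, where 3 libraries were at or under the floor of 3 counts. The intervals of the sums do not overlap, but they cover counting error only and the ranges of the libraries do overlap.

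Whether LiCl changed a gene differently in the strains was tested by the interaction of strain and LiCl. Called were 0 of the 9 genes in each of the 3 interactions by edgeR, when 0 of the 6239 genes tested, or 0%, were called. The unadjusted p-value was under 0.05 for 3 of the 9 genes for *hcm1-3N* over WT, 1 for *hcm1-8E* over WT and 3 for *hcm1-3N* over *hcm1-8E*, against 11.3%, 10.3% and 8.99% of all genes. DESeq2 called 1, 0 and 0 of them and 130, 76 and 47 of all genes, the 1 being *NHA1* for *hcm1-3N* over WT (log2 difference -0.65, adjusted p = 0.0213). For *hcm1-3N* over WT the 3 genes were the antiporters *NHA1* (log2 difference -0.66, SE 0.180, edgeR adjusted p = 0.206) and *NHX1* (-0.47, SE 0.169, adjusted p = 0.277) and the pump *ENA5* (-0.64, SE 0.205, adjusted p = 0.237). The adjusted p-values with the replicate block were 0.0745, 0.0594 and 0.0579 in that order. The median log2 difference was -0.503 over the 9 genes and 0.00244 over all genes, with every gene but *PPZ1* (0.01) below 0. That the LiCl response of these genes was smaller in *hcm1-3N* than in WT thus did not pass the threshold. The interaction uses the same libraries as the comparisons of *hcm1-3N* with WT within each medium, so it is not separate from them. For *NHA1*, *NHX1* and *ENA5* the log2 fold changes of *hcm1-3N* over WT were 0.56, 0.48 and 0.42 in control medium. In LiCl they were -0.10, 0.008 and -0.22. For *HAL5* the difference of *hcm1-8E* from WT was -1.09 (SE 0.451, edgeR adjusted p = 0.437), and without the libraries numbered 1 it was -1.29 (adjusted p = 0.00239), in a fit that called 367 of all genes where all libraries gave 0.

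The strains were also compared within each medium. In control medium 2 of the 9 genes were higher in *hcm1-3N* than in WT and 0 were lower, when 7.68% of all genes were called, 4.23% higher and 3.45% lower. For 5 of the 9 the groups did not overlap, against 35.4% of all genes. *NHA1* had 128, 117 and 133 CPM in *hcm1-3N*, against 91.0, 74.0 and 91.8 CPM in WT, and *NHX1* had 152, 162 and 176 CPM in *hcm1-3N*, against 106, 117 and 127 CPM in WT. Neither gene's groups overlapped. The log2 fold changes were 0.56 for *NHA1* (SE 0.127, adjusted p = 0.0168 by edgeR) and 0.48 for *NHX1* (SE 0.120, adjusted p = 0.0242 by edgeR). Without WT control replicate 2 or 3N control replicate 3 neither was called, the log2 fold changes being 0.45 and 0.52 for *NHA1* and 0.47 and 0.42 for *NHX1*. *NHA1* also lost its call without 3N control replicate 1 (0.55), and *NHX1* without WT control replicate 1 (0.40) or 3N control replicate 2 (0.47).

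*VNX1* had 128, 140.4 and 146 CPM in *hcm1-3N*, against 81.7, 94.8 and 99.4 CPM in WT in control medium. The groups did not overlap, and the log2 fold change of 0.59 (SE 0.209) was called with the replicate block (adjusted p = 0.00544) but not without it (adjusted p = 0.0963, both by edgeR). Without 8E LiCl replicate 1, which is in neither group of this comparison, it was called (0.57, edgeR adjusted p = 0.0312). It was called as well without the libraries numbered 1 (0.55, adjusted p = 0.00231) and with only the 2 groups compared (adjusted p = 0.0334). *ENA5* was similar, with a log2 fold change of 0.42 (SE 0.146, edgeR adjusted p = 0.0133 with the block and 0.0908 without it), although its groups overlapped. With the block 4 of the 9 genes were called, all higher in *hcm1-3N*, against 22.5% of all genes. *ENA1* did not differ by more than its spread (log2 fold change 0.28, SE 0.351, edgeR adjusted p = 0.689). The median log2 fold change was 0.338 over the 9 genes and -0.00249 over all genes.

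In *hcm1-8E* over WT in control medium, and in *hcm1-3N* over *hcm1-8E*, 0 of the 9 genes were called by edgeR or DESeq2, when edgeR called 0.0641% of all genes in each. There was no overlap between the groups for 4 and 6 of the 9, against 25.3% and 26.7% of all genes. The unadjusted p-value was under 0.05 for 1 gene in each, against 12.5% and 12.8% of all genes. These were *NHX1* for *hcm1-8E* over WT (log2 fold change 0.30, edgeR adjusted p = 0.324) and *NHA1* for *hcm1-3N* over *hcm1-8E* (0.32, edgeR adjusted p = 0.316). *NHA1*, *NHX1* and *VNX1* had the same order of strain means in control medium, *hcm1-3N* first, *hcm1-8E* next and WT last, with no overlap between neighbouring strains for any of the 3. Their means in CPM were 126, 101 and 85.6 for *NHA1*, 163, 144 and 117 for *NHX1*, and 138, 116 and 92.0 for *VNX1*. *ENA5* and *HAL5* had the same order of means, with overlapping groups. The 3 genes are named for this order, and its share among all genes was not computed.

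**Figure D4:**
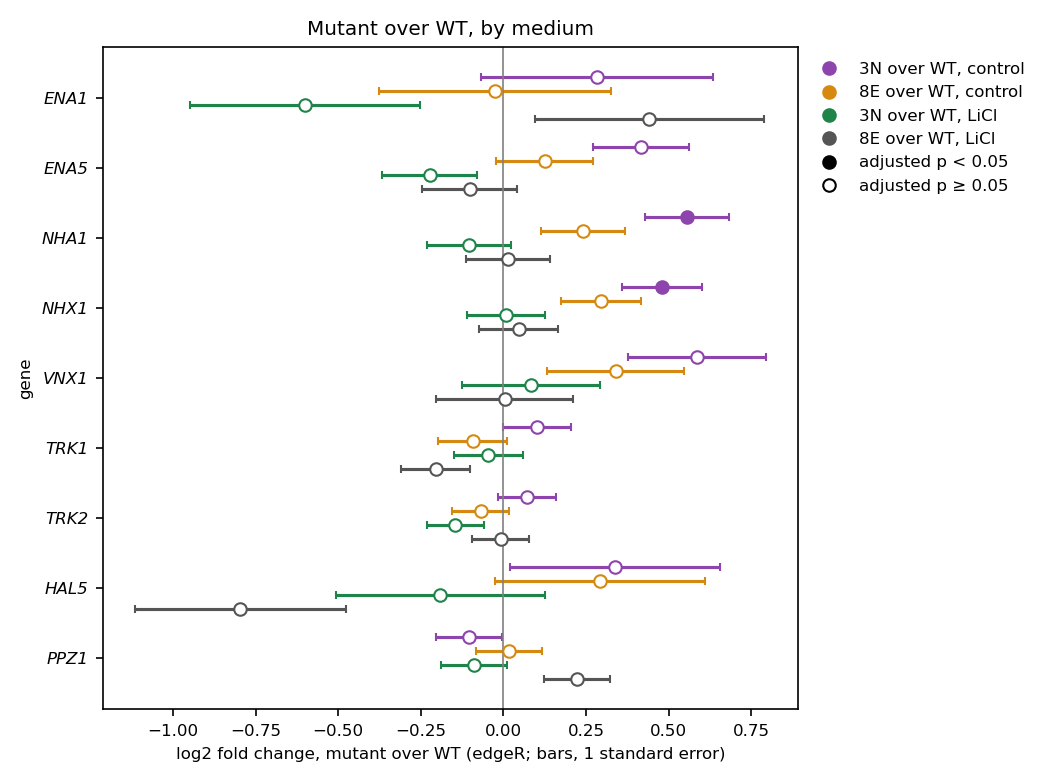
Log2 fold change of *hcm1-3N* (3N) and *hcm1-8E* (8E) over WT (x axis) for the 9 tested genes (y axis) in control medium and in LiCl, with bars of 1 standard error and filled points for an adjusted p under 0.05 (edgeR). The filled points are *NHA1* and *NHX1* in *hcm1-3N* over WT in control medium, and the LiCl points of both genes lie near 0.

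In LiCl, 0 of the 9 genes differed between strains by edgeR or DESeq2. All genes were called at 0.721% for *hcm1-3N* over WT, 0.0321% for *hcm1-8E* over WT and 3.06% for *hcm1-3N* over *hcm1-8E*. The unadjusted p-value was under 0.05 for 0, 2 and 2 of the 9 genes, against 8.62%, 5.05% and 14.5% of all genes. The groups did not overlap for 1 of the 9 in each comparison, against 11.2%, 7.37% and 13.1% of all genes. *NHX1* had nearly the same mean in the 3 strains, 164 CPM for *hcm1-3N*, 168 CPM for *hcm1-8E* and 163 CPM for WT, and *NHA1* had 145, 158 and 156 CPM in the same order of strains. The largest differences were in *ENA1* and *HAL5*. *ENA1* averaged 43.2 ± 7.93 CPM in *hcm1-3N* cells, against 88.9 ± 62.4 CPM in *hcm1-8E* cells (SD, n = 3 each), a log2 fold change of -1.04 (SE 0.351, edgeR adjusted p = 0.143). Among the fits that left out a library it was called only without 8E LiCl replicate 1 (-1.33, edgeR adjusted p = 0.0301). The *hcm1-8E* mean includes the 161 CPM of replicate 2. Replicates 1 and 3 had 47.5 and 58.5 CPM, against up to 49.5 CPM in *hcm1-3N*. In WT *ENA1* averaged 65.5 ± 12 CPM (SD, n = 3), and every *hcm1-3N* library lay below every WT library (log2 fold change of *hcm1-3N* over WT -0.60, edgeR adjusted p = 0.758).

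*HAL5* in LiCl had 64.8, 171 and 135 CPM in *hcm1-3N* cells, 64.3, 80.9 and 98.9 CPM in *hcm1-8E* and 85.9, 158 and 180.1 CPM in WT. The log2 fold change of *hcm1-8E* over WT was -0.80 (SE 0.320, edgeR adjusted p = 0.87) with all libraries. Without those numbered 1 it was -0.92 (adjusted p = 0.00181), and *hcm1-3N* over *hcm1-8E* was 0.78 (adjusted p = 0.00258, both by edgeR on 2 libraries a group). These fits called 149 and 864 of all genes, against 2 and 191 with all libraries. *PPZ1* was lower in each *hcm1-3N* library than in each *hcm1-8E* library in LiCl (log2 fold change -0.31, SE 0.10, edgeR adjusted p = 0.124). It was called there by limma on log2(TPM + 1) (-0.41, adjusted p = 0.031).

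Of 28 other genes of monovalent cation transport and its control, all tested, 4 rose and 1 fell in LiCl in *hcm1-3N*, 3 rose and 4 fell in *hcm1-8E*, and 6 rose and 2 fell in WT. Of all genes 10.3%, 29.5% and 30.4% were called in the same order of strains, so the share of the list called was under that of all genes in *hcm1-8E* and WT. Its median log2 fold changes were -0.125, -0.124 and -0.0718, against 0.00924, 0.032 and 0.0175 over all genes. *NRG2*, a repressor of the family that acts on *ENA1*, rose in all 3 strains, to 59.1 ± 9.40, 30.2 ± 5.50 and 59.8 ± 12.3 CPM in *hcm1-3N*, *hcm1-8E* and WT in LiCl, against 24.0 ± 3.58, 17.6 ± 0.67 and 23.0 ± 9.93 CPM in control medium (SD, n = 3). *PMP1*, a small subunit of the plasma membrane proton pump, rose in all 3 as well, with log2 fold changes of 0.51 in *hcm1-3N*, 0.34 in *hcm1-8E* and 0.69 in WT. The pump itself, *PMA1*, which drives the antiporters, rose in *hcm1-3N* (0.53, edgeR adjusted p = 0.012) and WT (1.04, 5.8e-05) and was not called in *hcm1-8E* (0.27, 0.0916). Its minor copy *PMA2* rose in *hcm1-8E* (0.82, 0.00427) and WT (1.06, 0.000709), and *PMP2* in *hcm1-3N* (0.36, 0.0497) and WT (0.65, 0.000695). *PMA1*, *PMA2* and *KHA1*, an intracellular potassium and proton antiporter, were also higher in *hcm1-3N* than in WT in control medium, by 0.60, 0.76 and 0.69 on the log2 scale (edgeR adjusted p = 0.00774, 0.0192 and 0.0304). They were the only 3 of the 28 called higher there, and 1 was called lower, against 4.23% and 3.45% of all genes. The median log2 fold change of the 28 in that comparison was -0.0808, against -0.00249 over all genes.

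Among the regulators, *SIS2*, an inhibitory subunit of Ppz1, fell in LiCl in *hcm1-3N* (log2 fold change -0.34, edgeR adjusted p = 0.0392) and WT (-0.40, 0.00641) and had 0.09 in *hcm1-8E*. *HAL1*, a halotolerance gene, fell in WT (-1.01, 0.00906). *SAT4*, the kinase that acts on Trk1 beside Hal5, and *HRK1*, a kinase that activates Pma1, fell in *hcm1-8E* (-0.60 and -0.45, edgeR adjusted p = 0.00111 and 0.0194). *KHA1* rose in WT (0.86, 0.00302). *SKO1*, the repressor that binds the CRE, and *HAL9*, a halotolerance gene, fell in *hcm1-8E* as well (-0.52 and -0.28, edgeR adjusted p = 0.00201 and 0.048) and are named here after their values were seen. With the replicate block 11, 10 and 12 of the 28 were called in *hcm1-3N*, *hcm1-8E* and WT, against 38.1%, 48.1% and 49% of all genes. *HAL1* was then called lower in all 3 strains (adjusted p = 0.00357 and 0.00134 in *hcm1-3N* and *hcm1-8E*, with log2 fold changes of -0.65 and -0.66 without the block), *PMA1* higher in *hcm1-8E* (0.0251), and *HRK1* and *SAT4* lower in WT (0.0227 and 0.0261). *PPZ2*, the paralog of *PPZ1*, also named after its values were seen, was called lower in all 3 strains with the block only (adjusted p = 0.00259, 0.00839 and 0.0184, against 0.0875, 0.127 and 0.191 without it).

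Of 15 subunit genes of the V-ATPase, the vacuolar proton pump that drives Vnx1 and Nhx1, 1 rose and 0 fell in LiCl in *hcm1-3N*, 2 rose and 3 fell in *hcm1-8E*, and 6 rose and 2 fell in WT. All genes were called at 10.3%, 29.5% and 30.4% in the same order. *VMA10* rose in all 3 strains, with log2 fold changes of 0.41, 0.51 and 0.60 in *hcm1-3N*, *hcm1-8E* and WT. *VMA7* fell in *hcm1-8E* and WT (-0.34 in both), *VMA13* fell in WT (-0.47), and *VMA8* rose in *hcm1-8E* (0.46). The other 5 that rose in WT, named after their values were seen, were *VMA3* (0.50), *VMA16* (0.39), *VMA11* (0.34), *VPH1* (0.27) and *VMA1* (0.25), and the other 2 that fell in *hcm1-8E* were *VMA2* (-0.44) and *VMA6* (-0.28). With the replicate block 3, 6 and 8 of the 15 were called in *hcm1-3N*, *hcm1-8E* and WT, against 38.1%, 48.1% and 49% of all genes. Among them, *VMA13* was then also called lower in *hcm1-3N* and *hcm1-8E* (edgeR adjusted p = 0.038 and 0.0397). In *hcm1-3N* over WT in control medium 4 of the 15 were higher and 0 lower, against 4.23% and 3.45% of all genes. Also in control medium, 0 of the 15 were called in *hcm1-8E* over WT and in *hcm1-3N* over *hcm1-8E*, with or without the replicate block. Without the block 0.0641% of all genes were called in each. The groups did not overlap for 12 of the 15 in *hcm1-8E* over WT and 7 in *hcm1-3N* over *hcm1-8E*. Of all genes this held for 25.3% and 26.7%.

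The genes whose log2 CPM followed *ENA1* most closely over the 18 libraries, among 5164 genes with a mean of at least 10 CPM, were *CRC1* (Pearson r = 0.896), *MAL33* (0.893), *YML131W* (0.891), *JEN1* (0.881) and *SSU1* (0.88). Crc1 is a mitochondrial carnitine carrier, Mal33 a maltose activator, Jen1 a lactate and pyruvate importer and Ssu1 a sulfite exporter. These values describe the libraries, which share their groups, and the high level of *ENA1* in replicate 2 of *hcm1-8E* in LiCl enters each of them.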

How the data were processed

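Per the study's methods, polyadenylated RNA was sequenced as 100-base paired ends from strand-specific libraries, and featureCounts gave, per gene, the exon fragments aligned to R64 whose mapping quality exceeded 20. The deposited counts were not normalized, and the deposited TPM of the authors divide them by gene length. Whether counting used the strand, and whether same-numbered cultures were grown together, is not given in the sources used here. Lengths implied by the TPM lay within 1% of those of R64 for 95.4% of 5890 matched genes, so R64 positions were used.

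Counts were fitted over all 6 groups with edgeR 4.0.16 (TMM, filterByExpr, robust quasi-likelihood) in R 4.3.3, with a Benjamini-Hochberg threshold of 0.05. Levels are TMM-scaled CPM. In deviations from group means every pair of same-numbered libraries correlated above 0.1 (lowest r 0.237, mean 0.523), so the replicate number was fitted as a block in an alternative. Such deviations cancel out within each group, so the mean r of -0.22 for other pairs largely follows from this and is no separate evidence. The other alternatives were RLE size factors, library totals alone, no filter, DESeq2 1.42.0, only the groups compared, summed ENA counts, limma 3.58.1 on log2(TPM + 1) or log2(TPM + 0.1), no libraries numbered 1, and each library left out in turn. All 10 genes were named. Of the lists, up to 10 genes and 4 V-ATPase genes were named, those called in the most LiCl comparisons, with ties broken by the larger absolute log2 fold change averaged over the 3 strains. The genes and lists were chosen with earlier results of these data known.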

Additional observations from a re-analysis of the deposited data

How the results depend on the processing

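Of the 336 recomputed counts of called genes, 297 were within 1.5 times the count with all libraries and 39 were not. For LiCl in *hcm1-3N* the count of 1 became 0 under RLE size factors, library totals alone, only the groups compared, and limma on log2(TPM + 1) or log2(TPM + 0.1), and 2 with the replicate block or without the libraries numbered 1. Of all genes 645 were called there with all libraries, 19 with only the groups compared, 725 with library totals alone and 1944 without the libraries numbered 1. For LiCl in *hcm1-8E* the count of 3 became 5 with library totals alone, the replicate block and both limma fits. With library totals alone the median log2 fold change of all genes there was 0.13, against 0.03 with TMM. For *hcm1-3N* over WT in control medium 2 became 4 with the replicate block. The interaction of *hcm1-3N* over WT went to 1 with DESeq2. *hcm1-3N* over *hcm1-8E* in LiCl went to 1 under both limma fits and without the libraries numbered 1, as did, without the libraries numbered 1, *hcm1-8E* over WT in LiCl, the interaction of *hcm1-8E* over WT and that of *hcm1-3N* over *hcm1-8E*. Without the libraries numbered 1 all genes called were 864, 149, 367 and 585 in these comparisons, against 191, 2, 0 and 0 with all libraries. The cause was not tested. For LiCl in WT 7 genes were called with the replicate block, with DESeq2 and without the libraries numbered 1. The block changed no other call of the 9 genes than those given.

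With each library left out in turn the counts were 4 to 7 for LiCl in WT, 0 to 3 in *hcm1-3N*, 2 to 4 in *hcm1-8E*, 0 to 3 for *hcm1-3N* over WT in control medium and 0 to 1 in LiCl for *hcm1-3N* over *hcm1-8E*, and 0 in the others. The sign turned for *NHX1* in *hcm1-3N*, whose log2 fold change near 0 was -0.00319 with RLE size factors, -0.00958 without the filter, -0.00323 with DESeq2 and -0.0572 to 0.0836 with a library left out. It also turned in such fits for *VNX1* in WT (-0.0154 to 0.259), *ENA5* in *hcm1-3N* (-0.0426 to 0.224) and *HAL5* in *hcm1-3N* (-0.0057 to 0.596), none of them called. Low counts limit *ENA2* alone, at 2 to 14 a library, while shared sequence limits the counts of all the ENA genes.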
